A study of Mus musculus with 6 samples.

Results

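The proteasome subunit genes are the protein-coding genes whose symbols run from Psma to Psmg followed by digits. They were taken from the deposited gene table by symbol and gene type, with no use of expression values, and number 48 of 28945 genes. Of the 48, 46 reached a mean of 1 FPKM in at least 1 group and were tested. The other 2, Psma8 and Psmb11, did not. FPKM, fragments scaled by transcript length and sequencing depth, is a level that can be compared between genes of different length.

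The proteasome is the protease that degrades ubiquitin-tagged proteins in the cytosol and nucleus. Its barrel, the 20S core, stacks rings of alpha subunits, which gate the entry channel, around rings of beta subunits, some of which carry the catalytic sites. Caps bind the barrel ends: the 19S cap recognises, unfolds and feeds in ubiquitinated proteins, while the PA28 caps act without ubiquitin. Lymphocytes and cells exposed to interferon gamma replace the constitutive catalytic subunits with immunoproteasome subunits, which changes the peptides made for MHC class I, and T cell activation is known to draw on proteasome function.

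The data are RNA-seq levels in splenic CD4+ T cells, in 3 libraries of C57BL/6J mice, labelled CONT, and 3 libraries of db/db mice, labelled DM. The db mutation inactivates the leptin receptor, and db/db mice grow obese and diabetic. Cells of both groups were purified and their RNA prepared by the same stated protocol. The series title also names eldecalcitol, a vitamin D analogue, but none of the 6 libraries is labelled with it, so DM against CONT was the comparison made. The labels give no age or sex and no background strain for the db/db mice. They also leave it unsaid whether the libraries of a group are separate animals, so a p-value here reflects the spread among 6 libraries, part of which may be technical. Values of single libraries are given in the order replicate 1, 2 and 3.

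The libraries were not alike in quality or cell content. All 12 CD4 T cell markers were detected, with a summed level of 1514 to 1807 FPKM in CONT and 884.1 to 1354 in DM. For several other cell types the summed markers were higher in every DM library than in any CONT library: the 11 macrophage and monocyte markers summed to 104.4 to 246.7 FPKM in CONT and 472.1 to 1426 in DM, the 7 basophil and mast cell markers to 3.19 to 7.90 and 68.9 to 334.5, and the 7 plasma cell markers to 31.2 to 124.2 and 262.7 to 487.1. Neutrophil markers ran from 30.9 to 113.6 FPKM in CONT and from 234.1 to 1330 in DM, and dendritic cell markers from 3.31 to 4.0 and from 11.6 to 29.1. Sums overlapped between groups for B cell markers (5.45 to 24.5 and 11.8 to 348.3 FPKM), erythroid markers (84.1 to 354.4 and 197.2 to 4385) and CD8 T and natural killer cell markers (36.9 to 49.8 and 33.0 to 127.1). No listed marker was at 0 in every library; Fcer2a, Fcer1a and Klra8 were at 0 in some. CONT replicate 1 stood apart, with a mean correlation with its own group of 0.878 on log2(FPKM + 1), against 0.915 to 0.949 in the others, and with 7.46% of its FPKM in ribosomal protein genes, against 14.8% to 19.9%. In bulk samples, fewer cells of a type and less RNA per cell cannot be told apart.

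No proteasome gene passed the test between DM and CONT. With limma on log2(FPKM + 1) and Benjamini-Hochberg adjustment over all 13106 tested genes, 0 of 46 had an adjusted p below 0.05, where the share over all genes was 1.52%. At an unadjusted p below 0.05 there was 1 of 46, Psmg4, against 16.0% of all genes; without CONT replicate 3 there were 9. In the authors' deposited table the smallest q-value among these genes was 0.232 and none was marked as significant. Estimates leaned one way all the same: 43 of the 46 log2 fold changes were above 0, against 48.8% of all genes, with a median of 0.40 against -0.01 over all genes. The exceptions were the lid gene Psmd3, the activator Psme3 and the regulator Psmf1. With every library scaled to the same summed FPKM, which moves the median of all genes to -0.32, 29 of 46 were above 0 and their median was 0.07. Without CONT replicate 1 the median was 0.12, with 37 above 0; without DM replicate 1 it was 0.25. In 8 of the 46 genes every DM library lay above every CONT library, near the share of 13.8% over all genes. They were Psmg4, Psmb7, Psmd13, Psma7, Psma1, Psmb4, Psma4 and Psmb1. In 0 of the 46 every DM library lay below, against 1734 of all 13106 genes. Marker sums of several other cell types were also higher in DM. Those of macrophages and monocytes were highest in DM replicate 3 (1426 FPKM), and those of basophils and mast cells in DM replicate 1 (334.5 FPKM). The summed proteasome genes were highest in DM replicate 1 (2148 FPKM). The part of other cells in this lean was not tested.

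**Figure D1:**
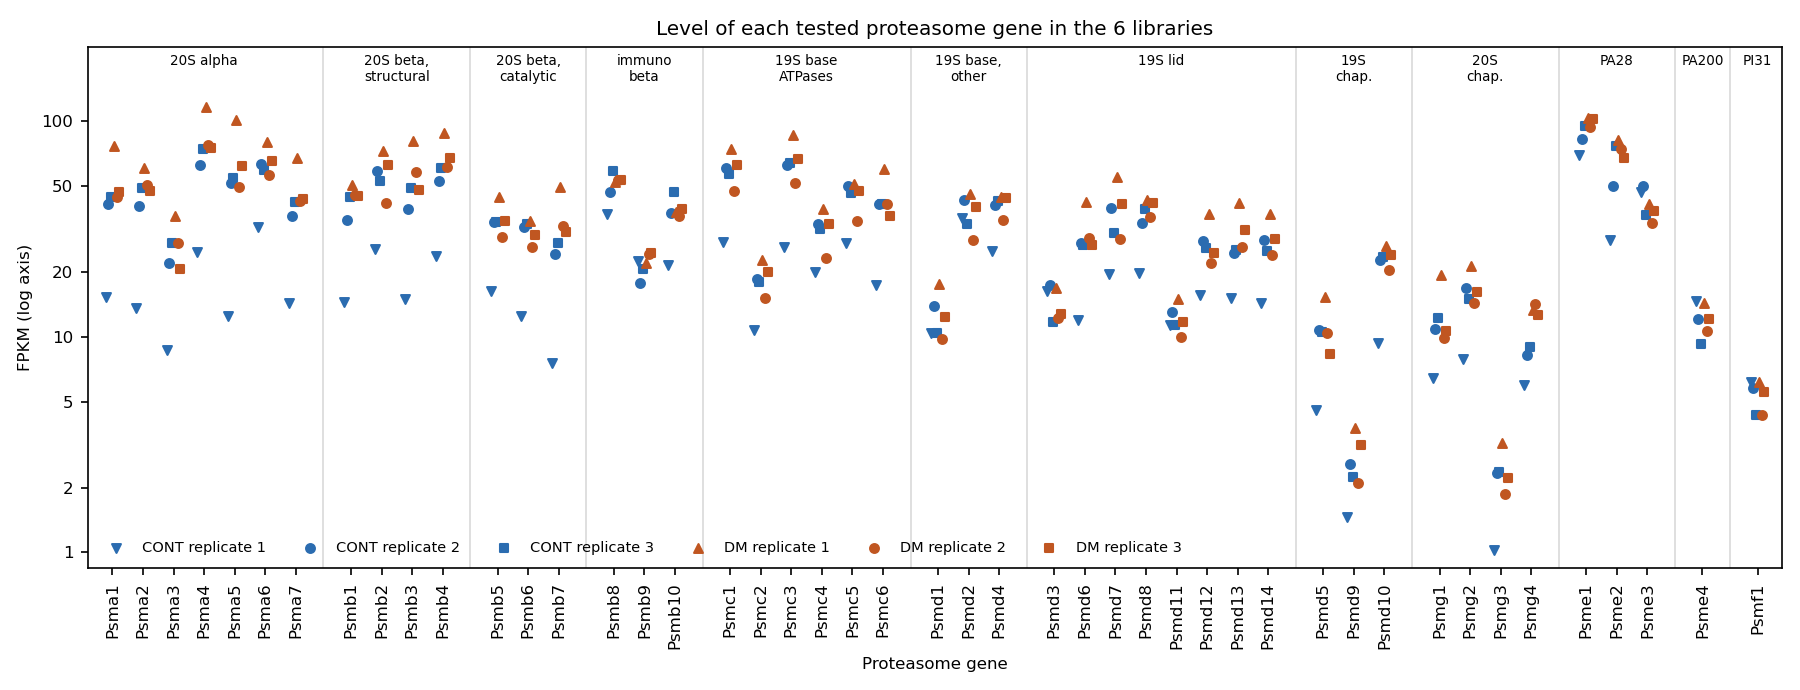
FPKM (log axis) of the 46 tested proteasome genes, grouped by role, with 1 point per library and no averaging. CONT replicate 1 (blue downward triangles) is the lowest point for most core and 19S genes and DM replicate 1 (orange upward triangles) the highest. The 3 immunoproteasome genes lie closer together than the constitutive core genes, but so do several 19S and regulator genes. CONT replicate 1 is also the lowest point for Psmb8 and Psmb10.

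Summed over the 48 genes, the level was 842.3, 1543 and 1613 FPKM in CONT replicates 1, 2 and 3 and 2148, 1517 and 1675 in DM replicates 1, 2 and 3. CONT replicate 1 was far below and DM replicate 1 well above the other 4 libraries, which lay together whatever their group. As a share of all FPKM, proteasome genes took 0.416% ± 0.0684 (SD, n = 3) in CONT and 0.446% ± 0.0720 (SD, n = 3) in DM (two-sided exact permutation test, p = 0.7). Without CONT replicate 1 the difference was -0.00758 percentage points and without DM replicate 1 it was -0.00794, so its sign turned without either of these libraries. Proteasome genes were expressed at substantial levels: 42 of the 48 had a mean over 10 FPKM across the 6 libraries. Psme1 was the highest, and of the 46 tested genes the chaperones Psmd9 and Psmg3 were the lowest.

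The order of libraries within genes repeated this. CONT replicate 1 was the lowest and DM replicate 1 the highest of the 6 libraries in 35 of the 46 tested genes, a pattern chosen after the values were seen, against 16.4% of all genes. It held for all 14 tested constitutive 20S core genes, 13 of 17 cap genes, all 3 chaperones of 19S assembly, 3 of 4 chaperones of 20S assembly and 2 of 3 PA28 genes. It held for none of the 3 immunoproteasome genes, nor for Psme4 or Psmf1. The ratio of the highest to the lowest library ran from 1.38 for the immunoproteasome gene Psmb9 to 8.12 for the alpha ring gene Psma5.

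The alpha ring, Psma1 to Psma7, forms the outer rings of the barrel and its gate. Psma5 was at 12.5, 51.6 and 54.2 FPKM in CONT against 101.2, 49.2 and 61.5 in DM. The low and high extremes were again the replicates numbered 1, and the other 4 libraries overlapped. Psma5 (chr3:108256926-108279974, plus strand) averaged 39.4 ± 23.4 FPKM in CONT and 70.7 ± 27.2 in DM (SD, n = 3), a log2 fold change of 1.01 ± 0.58 (SE) with an adjusted p of 0.373 by limma with Benjamini-Hochberg adjustment. A processed copy, Psma5-ps, was listed at 1.09 to 4.47 FPKM in CONT and 4.33 to 7.60 in DM, and the labels do not say how reads shared between copies were assigned. Psma4 was the most abundant alpha gene, at 24.6, 62.6 and 74.3 FPKM in CONT and 115.5, 77.0 and 75.1 in DM. Its groups did not overlap, but CONT replicate 3 and DM replicate 3 were nearly level, and the log2 fold change was 0.83 ± 0.44 (SE; limma, Benjamini-Hochberg adjusted p = 0.352). Psma6 had the smallest estimate of the ring, with 32.3, 62.9 and 59.4 FPKM in CONT and 79.9, 56.1 and 64.9 in DM, overlapping groups and a log2 fold change of 0.41 ± 0.32. Across the 7 genes, adjusted p-values by limma with Benjamini-Hochberg adjustment ran from 0.349 to 0.457. The median log2 fold change was 0.81, and 0.34 without CONT replicate 1, when Psma4, Psma5 and Psma6 were at 0.35, 0.35 and 0.11.

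The structural beta subunits, Psmb1 to Psmb4, sit beside the catalytic subunits in the inner rings and carry no active site. Psmb3 was at 14.9, 39.2 and 49.0 FPKM in CONT against 80.4, 57.8 and 47.7 in DM. Only CONT replicate 1 lay clearly apart at the low end, and CONT replicate 3 lay above DM replicate 3. The log2 fold change was 0.95 ± 0.45 (SE; limma, Benjamini-Hochberg adjusted p = 0.329). Psmb1 was at 14.5, 34.7 and 44.5 FPKM in CONT against 50.5, 45.5 and 44.7 in DM, with a log2 fold change of 0.71 ± 0.40; its groups did not overlap, by a margin of less than 1 FPKM. For the 4 genes the median log2 fold change was 0.73, and 0.29 without CONT replicate 1, when Psmb1 and Psmb3 were at 0.25 and 0.46.

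The 3 constitutive catalytic subunits have immunoproteasome counterparts that take their places in newly built particles. Psmb5 carries the chymotrypsin-like site and is replaced by Psmb8. Psmb6 carries the caspase-like site and is replaced by Psmb9, and Psmb7 carries the trypsin-like site and is replaced by Psmb10. Psmb8 and Psmb9 lie in the MHC region of chromosome 17, beside the peptide transporter gene Tap1, unlike their constitutive counterparts. The promoter windows of the pairs Psmb5 and Psmb8, and Psmb6 and Psmb9, are shown because these genes set the contrast between constitutive and interferon-inducible subunits. They run from 250 bases before to 50 after the start, 5′ to 3′ on the gene's strand, from RefSeq on GRCm38.p6. Capitals mark a match to either of 2 motifs, TGACNNNGC, the antioxidant response element read by the factors Nrf1 and Nrf2, or TTCNNNGAA, the gamma-activated site of interferon-inducible promoters, on either strand.
Psmb5, chr14:54617946-54618245, minus strand: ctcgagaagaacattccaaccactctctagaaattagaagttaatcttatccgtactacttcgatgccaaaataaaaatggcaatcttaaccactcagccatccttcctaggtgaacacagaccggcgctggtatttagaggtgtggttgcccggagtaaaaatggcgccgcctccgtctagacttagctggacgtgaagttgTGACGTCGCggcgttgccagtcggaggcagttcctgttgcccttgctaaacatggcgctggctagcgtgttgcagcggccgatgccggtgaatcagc
Psmb6, chr11:70525107-70525406, plus strand: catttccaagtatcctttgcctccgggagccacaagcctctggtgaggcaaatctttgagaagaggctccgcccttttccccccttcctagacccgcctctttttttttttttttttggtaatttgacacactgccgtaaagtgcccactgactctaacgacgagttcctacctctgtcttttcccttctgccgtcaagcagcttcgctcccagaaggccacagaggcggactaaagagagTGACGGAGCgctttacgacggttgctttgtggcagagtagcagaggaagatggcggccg
Psmb8, chr17:34197945-34198244, plus strand: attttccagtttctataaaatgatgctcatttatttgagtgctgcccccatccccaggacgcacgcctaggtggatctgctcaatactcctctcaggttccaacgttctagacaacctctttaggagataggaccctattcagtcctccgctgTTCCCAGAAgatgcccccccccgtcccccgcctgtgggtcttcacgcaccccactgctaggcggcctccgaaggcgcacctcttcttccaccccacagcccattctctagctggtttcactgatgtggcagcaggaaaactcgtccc
Psmb9, chr17:34187281-34187580, minus strand: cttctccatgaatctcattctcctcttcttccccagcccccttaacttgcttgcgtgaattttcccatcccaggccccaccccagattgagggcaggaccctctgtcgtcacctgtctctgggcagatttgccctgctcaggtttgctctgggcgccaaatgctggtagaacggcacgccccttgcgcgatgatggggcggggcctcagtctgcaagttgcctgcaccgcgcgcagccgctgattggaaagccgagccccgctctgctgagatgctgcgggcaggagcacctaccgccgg

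The antioxidant response element was found in the windows of Psmb5 and Psmb6, the gamma-activated site in that of Psmb8, and neither in that of Psmb9. A further motif, GAAANNGAA, a core of sites for interferon regulatory factors, was in none of these 4. Over the 43 windows matched to 40 of the 48 genes, the antioxidant response element was in 6 (Psmb5, Psmb6, Psmc6, Psmd9, Psmd12 and Psme4), against 12.4% of 32851 windows of all genes. The gamma-activated site was in 3 (Psmb8, Psmd2 and Psmg1), against 8.30% of all windows, and the interferon regulatory factor core in 7 (Psmb3, Psmb4, Psmc2, Psmd4, Psmd9, Psme1 and Psmg4), against 8.56%. Both strands were searched for all 3 motifs, and a match is a description of the letters only.

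Psmb5 (ENSMUSG00000022193, chr14:54614119-54618022, minus strand) was at 16.3, 34.1 and 34.1 FPKM in CONT against 44.4, 28.9 and 34.3 in DM. Apart from the replicates numbered 1 the groups were at the same level, and the log2 fold change was 0.39 ± 0.34 (SE; limma, Benjamini-Hochberg adjusted p = 0.5). Psmb6 (chr11:70525367-70527858, plus strand) was at 12.4, 32.3 and 33.2 FPKM in CONT against 34.4, 26.1 and 29.6 in DM. Its log2 fold change was 0.31 ± 0.38 and turned to -0.13 without CONT replicate 1, since CONT replicates 2 and 3 lay above DM replicates 2 and 3. Psmb7 (chr2:38588036-38644087, minus strand) was at 7.59, 24.1 and 27.3 FPKM in CONT against 49.4, 32.8 and 30.5 in DM. Every DM library was above every CONT library, and the log2 fold change of 1.05 ± 0.47 was the largest estimate of the 46 genes, still with an adjusted p of 0.319 (limma, Benjamini-Hochberg), and was 0.50 without CONT replicate 1. Without that library Psmb5 was at 0.05, which was also the median of the 3 genes, whose median was 0.39 with it. Psmb7 shares 405 exon bases with Nek6 on the opposite strand, and Nek6 was below 1 FPKM in every library.

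The immunoproteasome subunits were nearly level between groups. Psmb8 (chr17:34197721-34201454, plus strand) was at 37.0, 46.7 and 58.4 FPKM in CONT against 52.0, 53.2 and 53.2 in DM. The DM libraries lay within the span of the CONT libraries, and the log2 fold change was 0.18 ± 0.24 (SE; limma, Benjamini-Hochberg adjusted p = 0.653), or 0.02 without CONT replicate 1. Psmb9 (chr17:34181987-34187764, minus strand) was at 22.5, 17.7 and 20.5 FPKM in CONT against 22.0, 24.1 and 24.4 in DM. Unlike every constitutive core gene, Psmb9 was highest of the CONT libraries in replicate 1; its log2 fold change was 0.21 ± 0.19 with overlapping groups. Psmb10 (chr8:105935735-105938444, minus strand) was at 21.5, 37.3 and 47.0 FPKM in CONT against 37.7, 36.3 and 39.0 in DM. CONT replicate 3 was the highest library of all for Psmb10, the log2 fold change was 0.16 ± 0.30, and it turned to -0.15 without CONT replicate 1. With libraries scaled to the same summed FPKM all 3 estimates were below 0, between -0.18 and -0.13. That scaling put the median of all genes at -0.32, below these 3. Psmb9 shares 212 exon bases with Tap1 on the opposite strand, where Tap1 was at 60.8, 37.8 and 35.0 FPKM in CONT and 29.7, 32.7 and 37.8 in DM. The labels do not say whether the authors counted by strand, so reads from those bases cannot be told apart.

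Within a library, the ratio of an immunoproteasome subunit to its constitutive counterpart does not depend on the scaling between libraries. It can still carry a library's trend over transcript length. The ratio of Psmb8 to Psmb5 was 2.28, 1.37 and 1.71 in CONT libraries against 1.17, 1.84 and 1.55 in DM libraries. The groups overlapped, with a difference in mean log2 ratio of -0.22 (two-sided exact permutation test, p = 0.5). The ratio of Psmb9 to Psmb6 was 1.81, 0.547 and 0.617 in CONT libraries against 0.639, 0.925 and 0.824 in DM libraries. CONT replicate 1 alone exceeded all DM libraries, and the difference of -0.11 on the log2 scale (exact p = 1) became 0.44 without it, with every DM library then above both CONT libraries (exact p = 0.2, the smallest that 2 against 3 allows). The ratio of Psmb10 to Psmb7 was 2.83, 1.55 and 1.72 in CONT libraries against 0.763, 1.11 and 1.28 in DM libraries. All 3 CONT libraries were above all 3 DM libraries, with mean log2 ratios of 0.97 ± 0.46 and 0.04 ± 0.38 (SD, n = 3) and a difference of -0.94. The two-sided exact permutation p was 0.1, the smallest that 3 against 3 allows, or 0.6 after Benjamini-Hochberg adjustment over the 6 ratios tested. Without CONT replicate 1 the difference was -0.67, with an exact p of 0.2. Averaged over the 3 pairs on the log2 scale, the ratio was 2.27, 1.05 and 1.22 in CONT libraries against 0.830, 1.24 and 1.18 in DM libraries (difference -0.42, exact p = 0.5; -0.09 without CONT replicate 1). The 4 libraries other than the replicates numbered 1 were thus between 1.05 and 1.24, whichever group they came from. Setting those replicates apart was a choice made after the values were seen. The average also joins pairs that differed in opposite directions in these 4 libraries. Psmb9 to Psmb6 was higher in both DM libraries than in both CONT libraries, Psmb10 to Psmb7 was lower, and Psmb8 to Psmb5 overlapped. With each library's trend over transcript length removed, the averaged difference was -0.17 (exact p = 0.5).

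**Figure D2:**
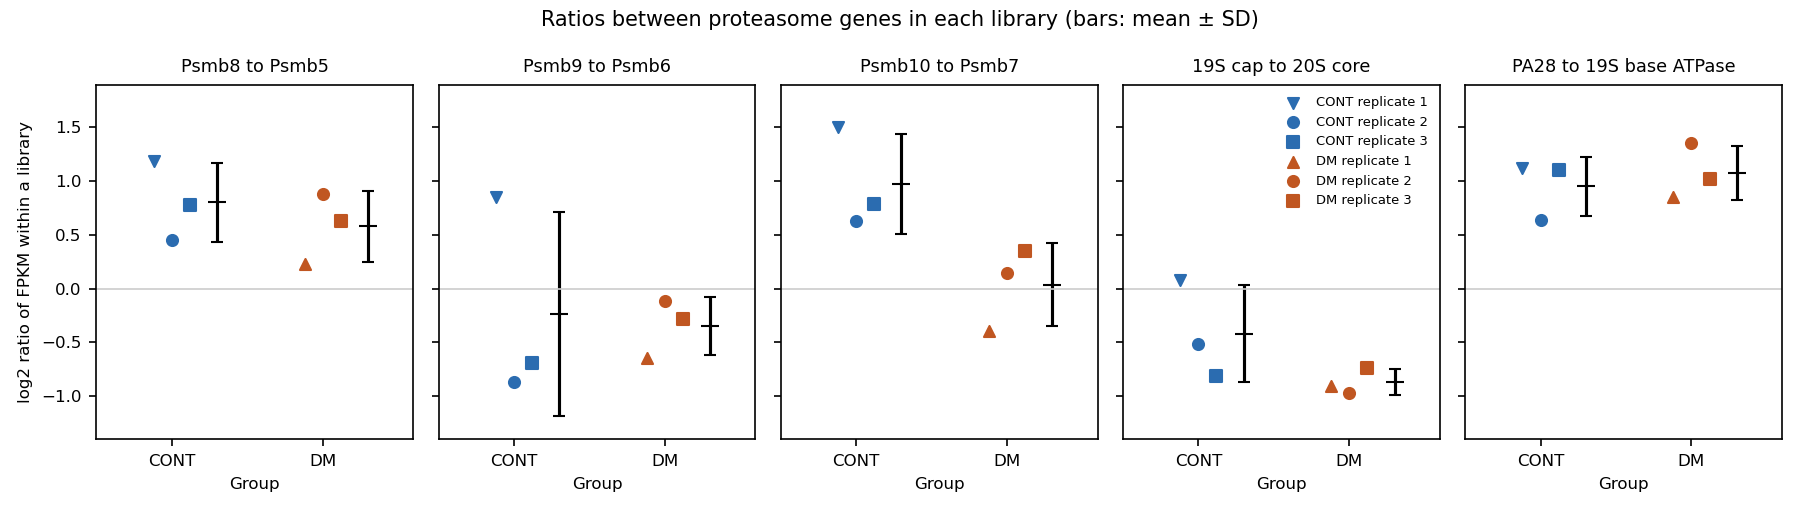
The log2 ratio of FPKM within each library for the 3 catalytic pairs, for the 19S cap against the 20S core and for PA28 against the 19S base ATPases; points are libraries and bars the mean ± SD of 3 libraries. The groups separate for Psmb10 to Psmb7, where CONT lies above DM, and overlap in the other 4 panels.

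The testis and thymus forms of the core were at the limit of the table. Psma8, an alpha subunit of spermatogenic cells, was at 0.134, 0.356 and 0.0933 FPKM in CONT and 0.523, 0.158 and 0.219 in DM. Psmb11, the catalytic subunit of the thymoproteasome of cortical thymic epithelium, was at 0.0161 and 0.0115 FPKM in CONT replicates 1 and 2 and was listed at 0 in CONT replicate 3 and in all 3 DM libraries. No fold is given for either.

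The base of the 19S cap holds 6 ATPases, Psmc1 to Psmc6, which unfold substrates and open the gate, and scaffold and ubiquitin-binding subunits. Psmc3 was the most abundant ATPase, at 25.9, 62.2 and 63.8 FPKM in CONT against 86.3, 51.5 and 66.3 in DM, and Psmc2 the least, at 10.8, 18.5 and 17.9 in CONT and 22.7, 15.1 and 19.9 in DM. In all 6 the replicates numbered 1 were the extremes and the remaining libraries overlapped. The median log2 fold change of the 6 was 0.34, and 0.05 without CONT replicate 1, and their adjusted p-values by limma with Benjamini-Hochberg adjustment ran from 0.443 to 0.804. The scaffold subunits Psmd1 and Psmd2 and the ubiquitin receptor Psmd4 had a smaller ratio of the highest to the lowest library. It was 1.79, 1.63 and 1.78, against 1.87 for Psmc5, the lowest of the ATPases. Psmd4 still had the replicates numbered 1 as its extremes. Psmd2 was at 35.5, 43.1 and 33.4 FPKM in CONT against 45.8, 28.1 and 40.0 in DM, with mean levels of 37.3 ± 5.09 and 37.9 ± 8.99 (SD, n = 3). CONT replicate 1 lay between the other CONT libraries there, and the groups overlapped.

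The lid of the cap, which removes ubiquitin chains before degradation, was represented by 8 genes. Psmd14, its deubiquitinating enzyme, was at 14.3, 27.9 and 25.0 FPKM in CONT against 37.1, 24 and 28.5 in DM, with overlapping groups. Psmd13 was at 15.1, 24.4 and 25.1 FPKM in CONT against 41.8, 25.9 and 31.1 in DM. Every DM library exceeded every CONT library, DM replicate 2 by less than 1 FPKM, and the log2 fold change was 0.60 ± 0.28 (SE; limma, Benjamini-Hochberg adjusted p = 0.329). Psmd13 shares 342 exon bases with Sirt3 on the opposite strand, which was at 0.680 to 1.11 FPKM in CONT and 0.910 to 1.48 in DM. Psmd3, a lid scaffold subunit, was at 16.3, 17.5 and 11.7 FPKM in CONT against 16.8, 12.2 and 12.7 in DM, and Psmd11, which clamps the cap to the core, was at 11.3, 13.0 and 11.4 in CONT and 15.0, 10.0 and 11.7 in DM. Neither was low in CONT replicate 1 in the way of the core genes. For the 8 lid genes the median log2 fold change was 0.42, and 0.14 without CONT replicate 1, when Psmd13 was at 0.37.

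Cap and core were compared within libraries as the mean log2 level of the 17 cap genes less that of the alpha ring and structural beta genes. As a linear ratio this was 1.05, 0.70 and 0.569 in CONT libraries against 0.533, 0.511 and 0.60 in DM libraries. CONT replicate 1 was the only library where this ratio of gene averages, not of summed RNA, was above 1, while CONT replicate 3 lay among the DM libraries. The difference in mean log2 ratio was -0.45 (two-sided exact permutation test, p = 0.2), or -0.21 without CONT replicate 1 (exact p = 0.4). With each library's trend over transcript length removed it was -0.26 (exact p = 0.2).

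The PA28 activators open the core without ATP. Psme1 and Psme2 encode its interferon-inducible cytosolic form and lie close together, at chr14:55578123-55581529 and chr14:55587441-55591113. Psme3 encodes the nuclear form. Psme1 had the highest level of all 48 genes, at 69.6, 82.1 and 94.6 FPKM in CONT against 103.5, 94.1 and 102.4 in DM. DM replicate 2 lay just under CONT replicate 3, and the log2 fold change was 0.29 ± 0.24 (SE; limma, Benjamini-Hochberg adjusted p = 0.478). With libraries scaled to the same summed FPKM it was -0.06, where the median of all genes was -0.32. Psme2 was at 28.2, 49.7 and 76.7 FPKM in CONT against 81.8, 73.8 and 67.7 in DM, with overlapping groups and a log2 fold change of 0.63 ± 0.37. That estimate was 0.26 without CONT replicate 1 and 0.15 with the length trend of each library removed, against 0.18 and -0.10 for Psme1. Its level is uncertain because Psme2b, a retrotransposed copy, was listed at 72.8, 52.1 and 55.4 FPKM in CONT and 51.7, 54.6 and 48.2 in DM, highest where Psme2 was lowest. Psme3 was at 46.6, 49.9 and 36.7 FPKM in CONT against 41.4, 33.7 and 38.3 in DM, and its log2 fold change of -0.22 ± 0.22 was the lowest of the 46 (limma, Benjamini-Hochberg adjusted p = 0.549). The ratio of Psme1 and Psme2 to the 6 ATPases, averaged on the log2 scale, was 2.17, 1.56 and 2.15 in CONT libraries against 1.81, 2.55 and 2.03 in DM libraries (difference 0.12, exact p = 0.7). The difference was -0.03 without CONT replicate 2 and -0.01 without DM replicate 2. This ratio of gene averages, not of summed RNA, was above 1 in every library, and the groups overlapped.

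The last 2 regulators stood outside the pattern of the core. Psme4, the PA200 activator, a nuclear cap linked to acetylated histone turnover, was at 14.7, 12 and 9.26 FPKM in CONT against 14.4, 10.6 and 12.1 in DM. Psmf1, the regulator PI31, was at 6.18, 5.81 and 4.36 FPKM in CONT against 6.15, 4.33 and 5.53 in DM. For both, CONT replicate 1 was the highest library of the 6 rather than the lowest, and the groups overlapped.

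The assembly chaperones hold subunits in place while particles are built and leave the finished proteasome. Psmg4, a chaperone of the alpha ring (ENSMUSG00000071451, chr13:34162964-34178173, plus strand), was at 5.94, 8.27 and 9.0 FPKM in CONT against 13.3, 14.2 and 12.6 in DM. Every DM library was above every CONT library, and the DM libraries lay close together. CONT replicate 1 was still the lowest of the 6, but DM replicate 1 was not the highest. The means were 7.73 ± 1.59 and 13.4 ± 0.771 FPKM (SD, n = 3), and the log2 fold change was 0.73 ± 0.20 (SE; limma, Benjamini-Hochberg adjusted p = 0.15). Without CONT replicate 1 the log2 fold change was 0.58. In the authors' deposited table Psmg4 had a fold of 1.73 and a q-value of 0.232. With library quality weights in limma its Benjamini-Hochberg adjusted p was 0.0313 at a log2 fold change of 0.63, a setting under which 6.65% of all genes were called. With each library's trend over transcript length removed, the log2 fold change was -0.02; the longest coding transcript of Psmg4, 555 bases, is the shortest of the 46. Its partner in the same step, Psmg3, was at 1.02, 2.34 and 2.35 FPKM in CONT and 3.22, 1.87 and 2.22 in DM. That gene had overlapping groups with the replicates numbered 1 as the extremes. Psmg1 and Psmg2, which act together on the alpha ring, had means of 9.82 ± 3.0 and 13.2 ± 4.75 FPKM in CONT and 13.2 ± 5.23 and 17.3 ± 3.60 in DM (SD, n = 3). Of the chaperones of the 19S base, Psmd10 (gankyrin) was at 9.32, 22.6 and 23.5 FPKM in CONT and 26.2, 20.4 and 23.8 in DM, and Psmd5 and Psmd9 showed the same order of extremes.

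**Figure D3:**
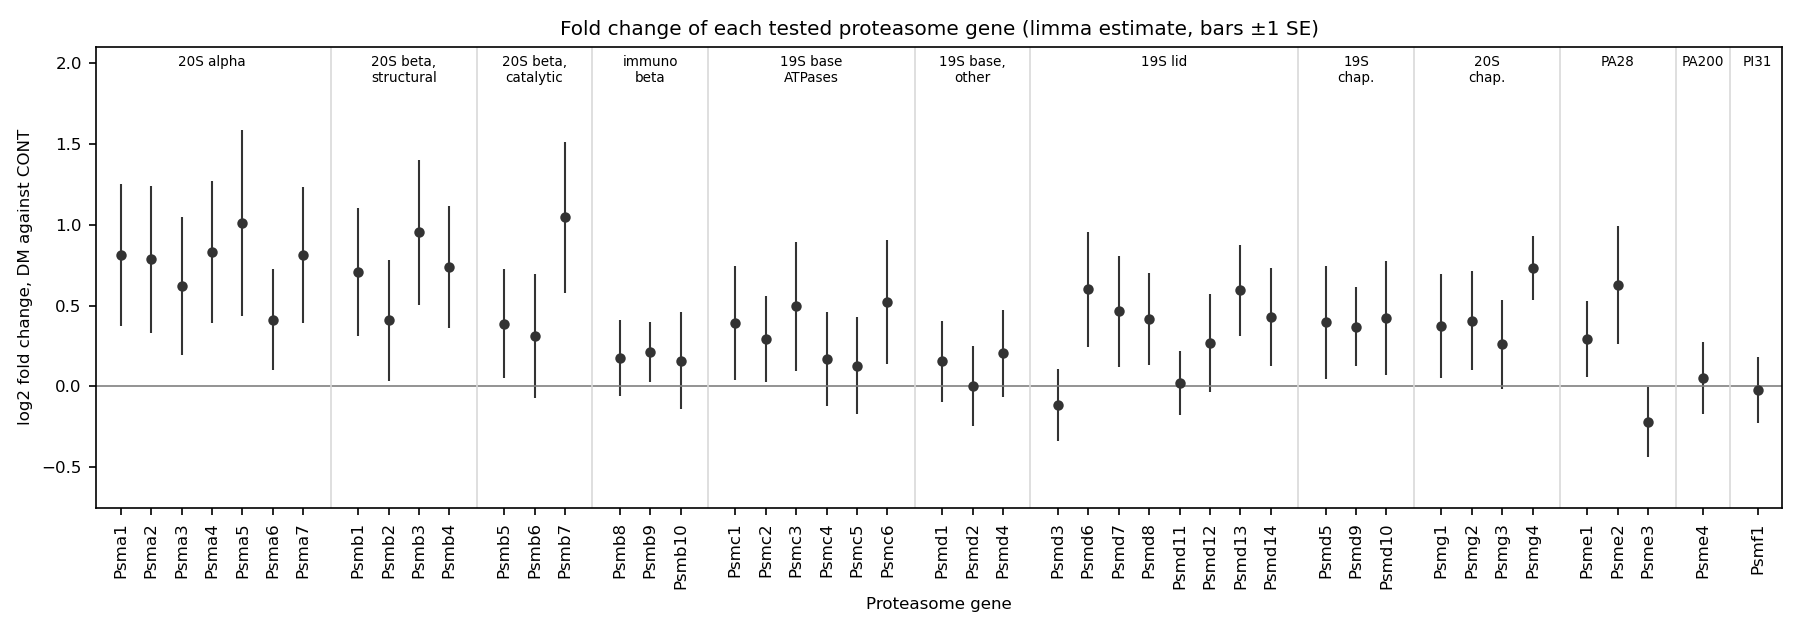
The limma log2 fold change, DM against CONT, of the 46 tested proteasome genes by role, with bars of ±1 SE. None passed the test, and estimates are highest in the core rings and Psmb7 and near 0.2 in the immunoproteasome genes. With libraries scaled to the same summed FPKM the immunoproteasome estimates turn below 0. The median of all genes is then -0.32, and 29 of 46 genes stay above 0. The Psmg4 interval is the narrowest of those above 0.7.

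Transcript length moved with the level of proteasome genes in CONT replicate 1. Over 10428 tested genes with a coding transcript in GENCODE M21, the level of CONT replicate 1 less the mean of CONT replicates 2 and 3, on log2(FPKM + 1), was higher for longer transcripts (Spearman's rho 0.57 across genes, which are not independent replicates). Its median was -0.89 for genes up to 1000 bases and 0.63 for genes over 5000 bases. Over the 46 tested proteasome genes alone, Spearman's rho was 0.38. By the longest coding transcript of each gene, proteasome genes are mostly short, with 34 of the 46 at or under 2000 bases. Their medians lay below those of all genes at the same lengths: -1.10 against -0.89 up to 1000 bases, -1.02 against -0.44 from 1000 to 1500, and -0.79 against -0.18 from 1500 to 2000. The 3 immunoproteasome genes, of 1311 to 1628 bases, stood at -0.93, -0.49 and 0.23 for Psmb10, Psmb8 and Psmb9. The alpha genes Psma2 and Psma3, whose longest coding transcripts have 2911 and 2846 bases, stood at -1.64 and -1.4. Which transcript form was expressed is not known here, so these lengths may overstate theirs. With each library's length trend removed, 0 of 46 genes passed, 31 of 46 log2 fold changes were above 0 and the median was 0.17. By class the median was then 0.45 in the constitutive core, 0.20 in the 19S cap and -0.07 in the immunoproteasome genes. For DM replicate 1 less the mean of DM replicates 2 and 3, Spearman's rho with length was -0.049 over the 46 genes and -0.2 over all genes. The part of length, or of RNA quality, in the group difference was not tested.

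**Figure D4:**
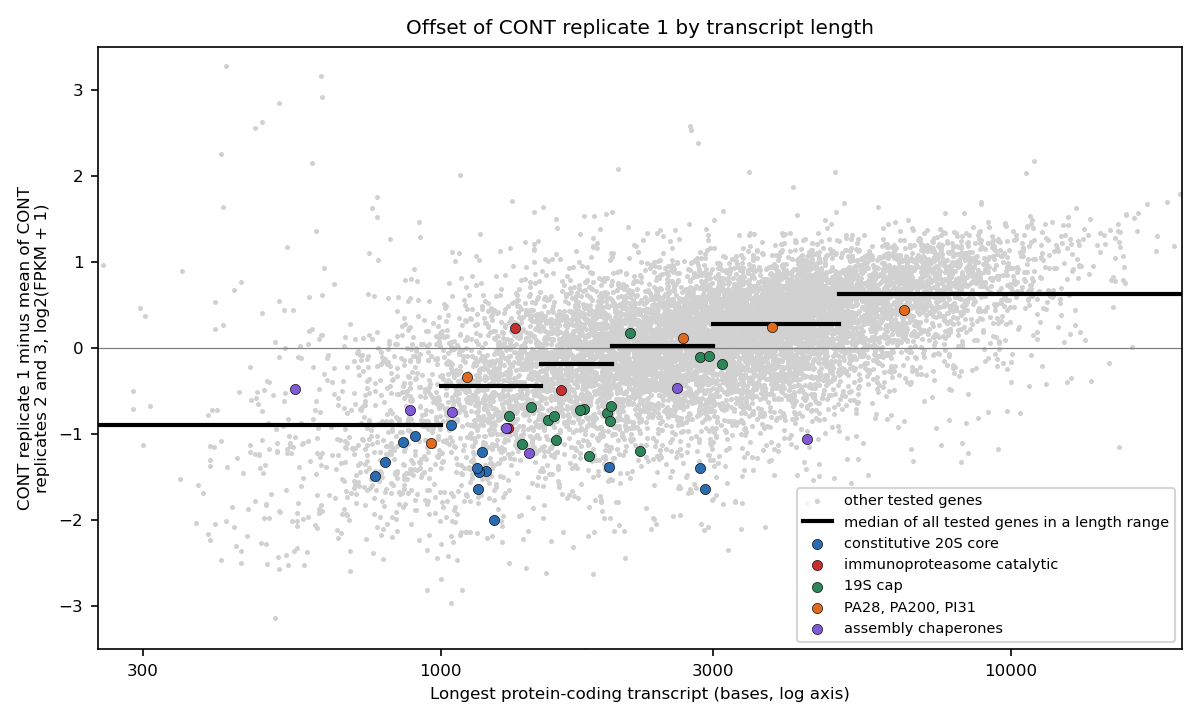
Level of CONT replicate 1 less the mean of CONT replicates 2 and 3, on log2(FPKM + 1), against the longest protein-coding transcript (log axis), for tested genes; black bars are medians of all tested genes in 6 length ranges. Constitutive core genes (blue) lie below the bars at -0.9 to -2.0. The immunoproteasome genes (red) spread from -0.93 to 0.23, with Psmb10 and Psmb8 also below the bars and Psmb9 above.

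Other proteasome factors were read from lists chosen by function. None of the 20 tested further subunits and bound factors passed (0 called by limma with Benjamini-Hochberg adjustment; 3 at an unadjusted p below 0.05, a share near the 16.0% of all genes), 12 had log2 fold changes above 0, against 48.8% of all genes, and the median was 0.13. Among the most abundant were Vcp, the segregase that extracts ubiquitinated proteins, at 52.3 ± 4.64 FPKM in CONT and 65.6 ± 15.7 in DM, and the shuttle factors Rad23b (24.1 ± 5.19 and 25.6 ± 3.58) and Ubqln1 (22.3 ± 2.63 and 18.5 ± 1.99; SD, n = 3). The 3, named after their values were seen, were Sem1, the smallest lid subunit, Pomp, which matures the beta ring, and Akirin2, which carries proteasomes into the nucleus. Sem1 was at 3.56, 10.2 and 15.8 FPKM in CONT and 26.3, 20.8 and 18.8 in DM (limma, Benjamini-Hochberg adjusted p = 0.267). Pomp was at 4.92, 14.0 and 17.1 FPKM in CONT and 28.4, 20.7 and 20.5 in DM (limma, Benjamini-Hochberg adjusted p = 0.303). Akirin2 was at 12.1, 14.3 and 14.6 FPKM in CONT and 21.5, 18.2 and 19.2 in DM (limma, Benjamini-Hochberg adjusted p = 0.267). Of the 20 genes, 4 had every DM library above every CONT library, against 13.8% of all genes. In 1 of the 20 every DM library lay below, against 1734 of all 13106 genes. Sem1, Pomp and Akirin2 were among the 4, but they were picked by p-value, which favours such a separation.

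Of 8 genes that control proteasome gene transcription, 0 passed, against 1.52% of all genes, 1 had a log2 fold change above 0, against 48.8%, and the median was -0.13. Nfe2l1, which encodes Nrf1, the factor that raises proteasome genes when degradation is short, was at 13.5 ± 3.69 FPKM in CONT and 11.6 ± 1.05 in DM. Nfe2l2, which encodes Nrf2, was at 22.2 ± 2.59 and 21 ± 4.65 FPKM, and Ddi2 and Ngly1, which process Nrf1, were at 11.8 ± 3.99 and 9.04 ± 1.19, and at 10.7 ± 1.35 and 9.25 ± 0.241 (SD, n = 3). None of the 8 passed an unadjusted p below 0.05 by limma. CONT replicate 1 ran high for most of these genes. Its level less the mean of CONT replicates 2 and 3, on log2(FPKM + 1), had a median of 0.515 over the 8. Ngly1 went the other way, at 9.24, 10.9 and 11.9 FPKM in CONT.

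Peptides from the proteasome are loaded on MHC class I, and interferon gamma induces the immunoproteasome genes. Over all genes 1.52% were called, 16.0% had an unadjusted p below 0.05 and 48.8% a log2 fold change above 0, so single genes at the unadjusted threshold in short lists are near that background. Of 11 genes of class I peptide supply 0 passed, 4 had log2 fold changes above 0 and the median was -0.25. B2m was at 2970 ± 1387 FPKM in CONT and 3905 ± 252 in DM, H2-D1 at 453 ± 29.7 and 400.1 ± 77.9, and the chaperone Pdia3 at 112.5 ± 25.4 and 155.0 ± 21.7 (SD, n = 3). H2-K1, the only one at an unadjusted p below 0.05, was at 635.8, 706.6 and 813.0 FPKM in CONT against 380.3, 194.4 and 449.3 in DM (limma, Benjamini-Hochberg adjusted p = 0.257). Of 8 genes of the interferon gamma pathway 0 passed, 4 had log2 fold changes above 0 and the median was -0.05. The kinase Jak1 was at 118.5 ± 20.9 FPKM in CONT and 80.9 ± 12.1 in DM (SD, n = 3). The receptor gene Ifngr1 was at 42.5 ± 8.45 and 57.7 ± 3.93 FPKM, and Irf1 at 43.3 ± 3.16 and 40.8 ± 9.31 (SD, n = 3). Irf8, named after its values were seen as the only one at an unadjusted p below 0.05, was at 2.59, 1.88 and 1.72 FPKM in CONT and 9.15, 4.99 and 15.3 in DM (limma, Benjamini-Hochberg adjusted p = 0.0772). It is expressed in macrophages, dendritic cells and B cells, whose marker sums are given above, and their part in its level was not tested.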

How the data were processed

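Total RNA of purified splenic CD4+ T cells was extracted with Trizol and sequenced with Illumina protocols, per the labels' protocols. The submitters' processing notes name cutadapt 1.9, FastQC and the build GRCm38; aligner, counting program and strand setting were not given in the sources used here. In 1 table of 28945 genes the authors deposited levels in FPKM per library, although its header calls them counts. The table deposited by the authors also holds, for each gene, a fold change as a ratio with its log2, a p-value and a q-value, from a test that no label names. Read totals are not given, so depth is unknown and no counting interval is printed.

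limma 3.58.1 under R 4.3.3 (trended, robust prior variance, no covariate) was run on log2(FPKM + 1) for the 13106 genes whose mean reached 1 FPKM in either group, with Benjamini-Hochberg adjustment over all of them and a threshold of 0.05. On this scale changes of low genes are understated. Ratios within a library and the share of FPKM were tested with two-sided exact permutation tests over libraries (SciPy 1.17.1, Python 3.11.15). Means and SDs are over 3 libraries. Coordinates are 1-based, from GENCODE M21 on GRCm38, to which all 48 genes matched; promoter windows are from RefSeq on GRCm38.p6, matched by symbol. Figures were drawn with matplotlib 3.10.9.

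The genes, their classes, the gene lists and the tests were chosen with earlier results of these data known. All 48 genes are named or counted by class; of the other lists, up to 4 genes by highest mean FPKM and any called gene are named, and others as marked; 2 genes within this rule are not reported here. Alternatives were other scalings, filters, pseudocounts and priors, library quality weights, a replicate block and leaving out each library. Removal of each library's transcript length trend, and the gene-by-gene method of the quality weights, used because the default method did not converge, were chosen after seeing the data.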

Additional observations from a re-analysis of the deposited data

How the results depend on the processing

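The count of 0 changed proteasome genes was the same under total, upper quartile and median-of-ratios scaling, the other pseudocount, filters and prior, without each library, and with the length trend removed. It was 1 with library quality weights and 1 at an unadjusted p below 0.05 by limma, Psmg4 in both; with the weights 871 of all 13106 genes were called (6.65%). With the replicate number as a block (replicate block) it was 0; deviations of same-numbered libraries correlated at -0.361, -0.382 and -0.203, and the labels do not say that the numbers pair samples. At an unadjusted p below 0.05 there were 9 genes without CONT replicate 3.

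The immunoproteasome and cap to core ratios kept their sign under every alternative run (-0.64 to -0.09 and -0.65 to -0.21 when 1 library was left out). With the length trend removed these differences shrank to -0.17 and -0.26. The PA28 to ATPase ratio turned to -0.13 with the length trend removed, and ranged from -0.034 to 0.235 when 1 library was left out. The difference in share of FPKM ranged from -0.00794 to 0.0634 percentage points when 1 library was left out. The cause of these turns was not tested.

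Of all 46 tested genes, 43 log2 fold changes were above 0, against 29 with total scaling, 37 with quality weights and 31 with the length trend removed. Total scaling put the median of all genes at -0.32. Among the 16 genes whose fold changes are stated, those turned below 0 were 5 with total scaling (Psmb6 -0.027, Psmb8 -0.171, Psmb9 -0.131, Psmb10 -0.184, Psme1 -0.061), 2 with quality weights (Psmb6 -0.036, Psmb10 -0.006) and 8 with the length trend removed (Psma6 -0.018, Psmb5 -0.125, Psmb6 -0.265, Psmb8 -0.008, Psmb9 -0.072, Psmb10 -0.14, Psme1 -0.104, Psmg4 -0.022). When 1 library was left out, only Psmb6 and Psmb10 of these 16 turned, both without CONT replicate 1 (ranges -0.131 to 0.543 and -0.151 to 0.397). The FPKM table holds no counts, so depth limits cannot be set per gene, and with 3 libraries a group the exact tests cannot pass 0.05.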
